A study of Mus musculus with 8 samples.

Results

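Wnt signalling genes and marker genes of the crypt stem cell were examined in the colon of mice labelled STAT5b-/-, in comparison with wild type mice. STAT5b is a transcription factor that carries signals of growth hormone and cytokine receptors to the nucleus. Members were taken by gene symbol: the numbered Wnt, Fzd, Sfrp, Dkk, Rspo and Axin genes, and 18 further genes listed by name, from the receptors Lgr5, Lrp5 and Lrp6 to the crypt genes Ascl2, Smoc2 and Lrig1. Of 61 such symbols in the annotation, 56 had a probe set, which is 56 of the 14351 genes named on these arrays, with 1 probe set for each. Fzd8, Fzd9, Lgr4, Notum and Znrf3 were not analysed here. The arrays hold RNA from adult mouse colon in 3 groups. The group labelled STAT5b-/- has 3 arrays, from 1 male (replicate 1) and 2 females. The WT group has 3 arrays, from wild type females. The REF group is a wild type female colon sample, deposited as 2 columns that were the same to within 2.47e-07 of their value and were counted as 1 sample, and the meaning of REF is not given in the labels. The labels give no strain, no age beyond adult, no segment of the colon and no part of the Stat5b gene that was deleted. Nor do they tell whether each replicate is its own animal. The p-values below therefore reflect the spread of these arrays alone, and that spread may be technical.

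Wnt proteins are secreted ligands that bind a Frizzled receptor together with the coreceptors Lrp5 or Lrp6. Binding stops the destruction complex, built on the Axin scaffold, from marking β-catenin for degradation, and β-catenin then acts with TCF/LEF factors on target genes. Secreted antagonists (the Sfrp proteins, the Dickkopf proteins and Wif1) hold the signal down outside the cell, whereas R-spondins raise it by binding Lgr receptors and removing the ligases Rnf43 and Znrf3, which would clear Frizzled from the surface. In the colon, Wnt and R-spondin made by stromal cells under the crypt base maintain the Lgr5-positive stem cells there, and Axin2, Ascl2, Ephb2 and Ephb3 are known targets of the pathway in these cells.

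Each value is the authors' ratio of an array to the mean of the 3 WT arrays for the same probe set, so WT averages 1 by construction. Such ratios carry no level: members cannot be ranked by abundance, the labelled tissue cannot be checked against the level of colon markers, and dim probe sets cannot be told from bright ones. Within an array, the SD of the log2 ratios over 26180 probe sets was 0.646 to 0.737 in STAT5b-/-, 0.289 to 0.363 in WT and 0.402 in REF. The WT arrays are part of the mean they were divided by, which draws them together, whereas STAT5b-/- and REF are not. How much of the difference in width comes from this was not tested. Stat5b itself gave ratios of 1.16, 1.17 and 1.26 in STAT5b-/-, against 1.08, 0.930 and 0.993 in WT, and 1.18 in REF (log2 fold change 0.26 ± 0.12 SE, limma adjusted p = 0.175). It was therefore not lower in the arrays labelled STAT5b-/-. A probe set outside the deleted part would not report the deletion, and whether that holds here cannot be told from the labels. The groups are named below as labelled. In whole tissue, fewer cells of a type and less RNA per cell cannot be told apart.

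The comparison asks how expression in the STAT5b-/- colon differs from that in the WT colon. Of the 56 members, 9 were lower and 1 was higher in STAT5b-/- at a Benjamini-Hochberg adjusted p under 0.05 (limma, adjusted over all 14351 genes). The 9 that fell were the secreted antagonists Sfrp1, Sfrp2 and Dkk3, the R-spondin Rspo3, the receptors Fzd1 and Fzd7, the feedback inhibitor Axin2, and the crypt markers Smoc2 and Lrig1. The 1 that rose was Ascl2, a transcription factor of the crypt stem cell. The 9 are 16.1% of the members, beside 8.42% of all genes called lower, and the 1 is 1.79%, beside 13.3% of all genes called higher. In either direction 10 members were called, where 21.7% of all genes were. The 3 STAT5b-/- arrays lay below all 3 WT arrays in 12 members (21.4%, against 16.5% of all genes) and above them in 6 (10.7%, against 25.0% of all genes). The median log2 fold change was -0.08 over the members and 0.007 over all genes. It turned to 0.076 over the members without WT replicate 2, with 0.09 over all genes. For REF over WT the median was -0.08 over the members and -0.051 over all genes.

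**Figure D1:**
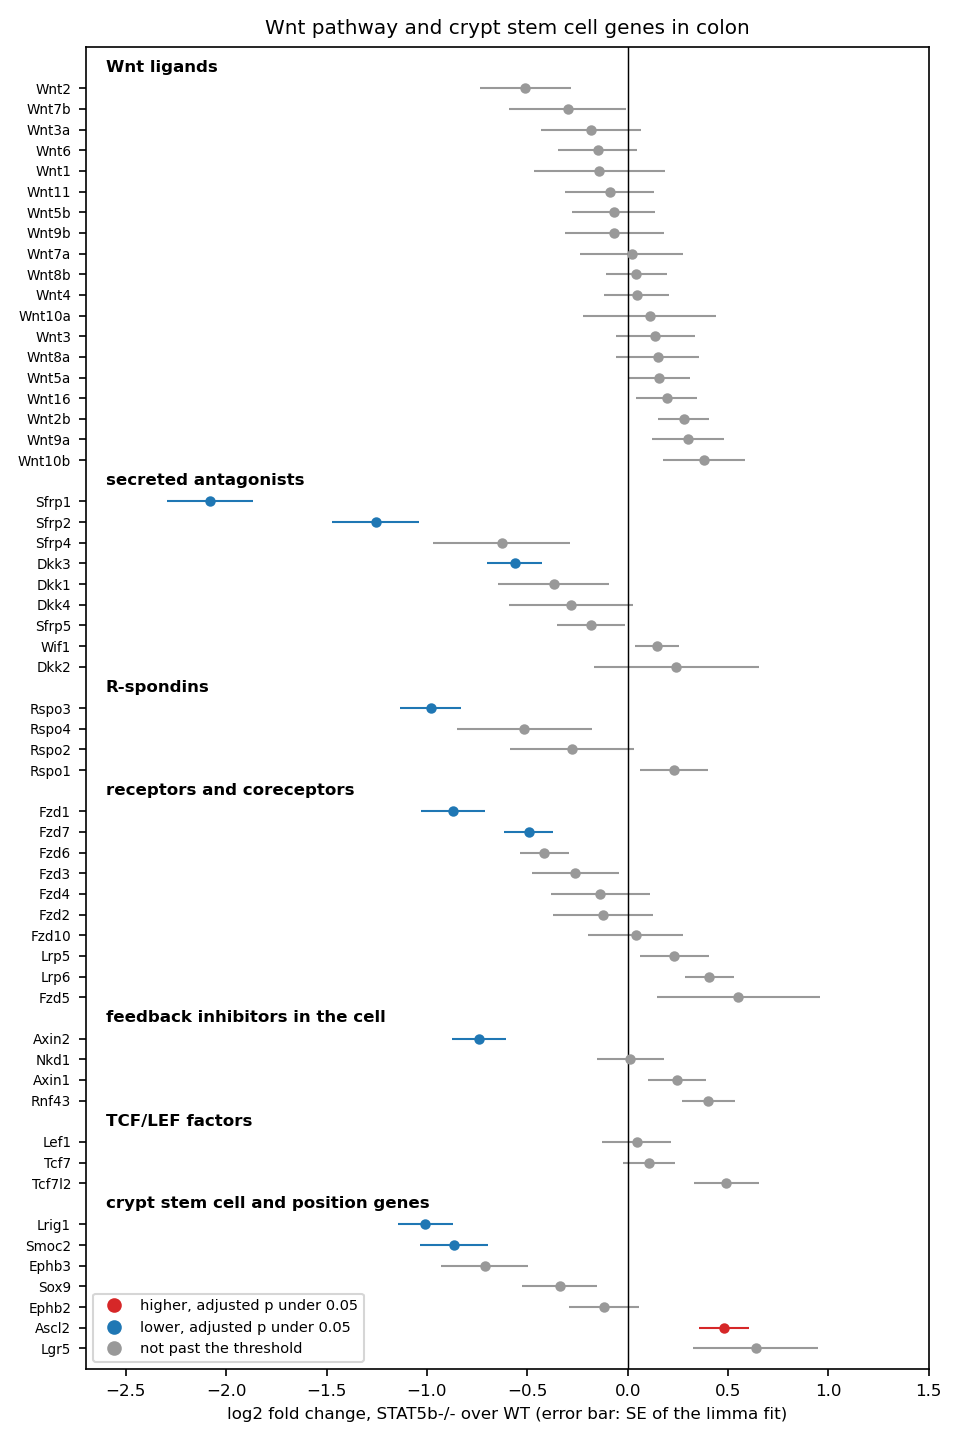
Log2 fold change (STAT5b-/- minus WT, ± SE of the limma fit, 3 arrays a group) of the 56 members, grouped by role; red marks members called higher, blue members called lower and grey the rest. Sfrp1 lies at -2.08, far to the left of the other members, the 19 Wnt ligands lie between -0.51 and 0.38, and the only red point is Ascl2 at 0.48.

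How firm these calls are differs between members. Quantile normalization of all probe sets, which gives every array 1 distribution of ratios and so removes the difference in width described above, left 1 member called lower (Sfrp1) and 0 higher, with 227 and 165 genes called lower and higher overall (1.58% and 1.15%). The log2 fold changes of the lost members kept their sign at a smaller size, with larger standard errors in most: Lrig1 was at -0.83 ± 0.18, Rspo3 at -0.81 ± 0.21, Fzd1 at -0.70 ± 0.18 and Axin2 at -0.62 ± 0.21. This step widens the WT arrays and narrows the STAT5b-/- arrays, whose width includes any difference between the groups. The lost calls therefore do not tell a weak difference from the effect of the step. Leaving out 1 array at a time left 5 to 9 members lower and 0 to 2 higher. In the same fits 4.62% to 9.47% of all genes were lower and 7.34% to 15.3% higher. Sfrp1, Sfrp2, Rspo3, Fzd1 and Lrig1 stayed past the threshold whichever array was left out. Without replicate 1 of STAT5b-/-, the only male, 8 members were lower and 0 higher, with Dkk3 and Ascl2 no longer called, while 5.11% of all genes were lower and 8.22% higher.

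Promoter sequences were looked up because several of the called members moved together. RefSeq promoters (GRCm38.p6, the 250 bases before the listed start) matched 37 of the 56 members, with 46 promoters. Shown are Ascl2, the member that rose (chr7:142969265-142969514, minus strand), Axin2, the classical β-catenin target, which fell (chr11:108920099-108920348, plus strand), and the Frizzled genes that fell, Fzd1 (chr5:4758217-4758466, minus strand) and Fzd7 (chr1:59481897-59482146, plus strand). Each reads 5′ to 3′ on the gene's strand, and capitals mark the TCF/LEF core CTTTG on either strand.
Ascl2 promoter: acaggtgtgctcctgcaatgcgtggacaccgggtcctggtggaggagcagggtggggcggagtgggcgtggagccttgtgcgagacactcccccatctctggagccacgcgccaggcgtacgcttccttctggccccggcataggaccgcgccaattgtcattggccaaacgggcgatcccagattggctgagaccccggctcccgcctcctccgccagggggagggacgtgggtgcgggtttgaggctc
Axin2 promoter: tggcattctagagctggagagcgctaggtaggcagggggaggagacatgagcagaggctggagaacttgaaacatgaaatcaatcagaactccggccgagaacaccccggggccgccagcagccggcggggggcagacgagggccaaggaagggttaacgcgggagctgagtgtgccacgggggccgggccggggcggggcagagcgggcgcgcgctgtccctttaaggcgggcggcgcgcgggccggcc
Fzd1 promoter: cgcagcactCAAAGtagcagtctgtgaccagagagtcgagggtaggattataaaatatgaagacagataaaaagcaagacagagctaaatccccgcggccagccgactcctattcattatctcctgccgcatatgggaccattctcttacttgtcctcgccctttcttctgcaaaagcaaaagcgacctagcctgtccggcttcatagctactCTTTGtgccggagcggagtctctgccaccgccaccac
Fzd7 promoter: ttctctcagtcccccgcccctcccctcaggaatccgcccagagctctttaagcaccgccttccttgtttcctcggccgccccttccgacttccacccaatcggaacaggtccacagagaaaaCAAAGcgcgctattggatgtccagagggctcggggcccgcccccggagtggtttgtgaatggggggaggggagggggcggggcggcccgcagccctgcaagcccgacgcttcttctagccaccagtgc

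On both strands, CTTTGAA or CTTTGAT was found in 3 of the 46 member promoters (6.52%, those of Dkk1, Wnt11 and Wnt5b), against 7.48% of 32841 promoters of the same length. The shorter core CTTTG, which the longer words contain, was found in 19 (41.3%), against 48.6% of all promoters. Of the 5 members called lower that had a promoter, 2 hold the core (40.0%). Fzd1 holds 2 cores and Fzd7 1, and Axin2, Lrig1 and Sfrp2 hold none in this window. Ascl2 holds none either. The STAT word TTCNNNGAA was found in 1 member promoter (2.17%, at a start of Wnt5b), against 7.02% of all promoters. These are matches of letters, and where a window has none it says nothing about the factor. Sfrp1, Rspo3, Dkk3 and Smoc2 had no entry.

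Among the 9 secreted antagonists, 3 fell (33.3%, beside 8.42% of all genes), 0 rose and 6 did not pass the test. Their median log2 fold change was -0.37, and that of REF over WT in the same genes was -0.34. REF lay below every WT array in 5 of the 9. The Sfrp proteins bind Wnt through a domain like that of Frizzled. Sfrp1 had ratios of 0.201, 0.235 and 0.264 in STAT5b-/-, against 1.08, 1.19 and 0.732 in WT, and 0.862 in REF. Every STAT5b-/- array lay far below the lowest of the others, which made this the member with the greatest difference. Its mean was 0.233 ± 0.0317 in STAT5b-/- and 1.00 ± 0.238 in WT (SD, n = 3 each), 4.23-fold lower in STAT5b-/-. The log2 fold change was -2.08 ± 0.21 (SE, 95% interval -2.59 to -1.57, limma adjusted p = 0.00125), and it stayed between -2.29 and -1.94 when any 1 array was left out.

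Sfrp2 followed with 0.508, 0.299 and 0.482 in STAT5b-/-, against 0.981, 0.950 and 1.07 in WT, and 0.788 in REF. The groups did not overlap, replicate 2 of STAT5b-/- being the lowest. Sfrp2 was 2.39-fold lower in STAT5b-/- (log2 fold change -1.26 ± 0.22, limma adjusted p = 0.00857). Sfrp4 gave 0.569, 0.574 and 0.633 in STAT5b-/-, against 0.638, 1.62 and 0.737 in WT, and 0.565 in REF. Its STAT5b-/- arrays were tightly grouped just under 2 of the WT arrays, and WT replicate 2 alone was high, and the difference of -0.63 ± 0.34 did not pass the test (limma adjusted p = 0.247), nor did it with any 1 array left out. Sfrp5 overlapped between the groups, with 0.762, 1.07 and 0.827 in STAT5b-/- and 0.910, 0.992 and 1.10 in WT. All 4 Sfrp members measured had a negative log2 fold change, as had 7080 of 14351 genes, and 2 of the 4 were called. REF over WT was negative in all 4 as well (-0.18 for Sfrp1, -0.34 for Sfrp2, -0.70 for Sfrp4 and -0.42 for Sfrp5). In Sfrp4 and in Sfrp5, where it stood at 0.744, REF lay below every STAT5b-/- array.

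The Dickkopf proteins Dkk1, Dkk2 and Dkk4 block Lrp5 and Lrp6, while Dkk3 is a divergent family member whose part in Wnt signalling is unclear. Dkk3 had ratios of 0.711, 0.657 and 0.653 in STAT5b-/-, against 0.923, 0.932 and 1.15 in WT, and 0.901 in REF. The groups were apart by a small gap, and Dkk3 was 1.48-fold lower in STAT5b-/- (log2 fold change -0.56 ± 0.14, limma adjusted p = 0.0274). This call was lost without STAT5b-/- replicate 1 (limma adjusted p = 0.0647), 2 (0.0991) or 3 (0.102), or without WT replicate 3 (0.079). Dkk1 overlapped, with 0.718, 0.808 and 0.679 in STAT5b-/- and 0.732, 1.49 and 0.781 in WT. Dkk4 likewise had WT replicate 2 as its highest array, at 1.44, and a log2 fold change of -0.28 ± 0.31. Dkk2 was the most scattered antagonist, with 1.20, 1.90 and 0.654 in STAT5b-/- and 0.714, 0.936 and 1.35 in WT. Wif1, which binds Wnt outside the cell, had very little spread: 1.11, 1.13 and 1.08 in STAT5b-/- against 0.989, 1.02 and 0.995 in WT. These groups were apart, but the log2 fold change of 0.14 ± 0.11 did not pass the test (limma adjusted p = 0.407).

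Of the 4 R-spondins, 1 fell (25.0%, beside 8.42% of all genes) and 3 did not pass the test. Rspo3, which in the mouse colon is made by stromal cells near the crypt base, had ratios of 0.554, 0.550 and 0.423 in STAT5b-/-, against 1.01, 0.924 and 1.07 in WT, and 1.10 in REF. All 4 wild type values lay well above the 3 STAT5b-/- values. The mean was 0.509 ± 0.0743 in STAT5b-/- and 1.00 ± 0.0734 in WT (SD, n = 3 each), 1.98-fold lower in STAT5b-/- (log2 fold change -0.98 ± 0.15, 95% interval -1.34 to -0.62, limma adjusted p = 0.00574). Rspo1 ran the other way without passing, with 0.952, 1.35 and 1.25 in STAT5b-/- and 0.975, 0.933 and 1.09 in WT. Rspo2 and Rspo4 each had WT replicate 2 as their highest WT array, far above the others in Rspo4 only. Rspo4 gave 0.585, 0.650 and 0.701 in STAT5b-/-, against 0.624, 1.60 and 0.780 in WT, and Rspo2 gave 0.832, 0.830 and 0.678 in STAT5b-/-, against 0.592, 1.41 and 1.00 in WT. Their log2 fold changes of -0.51 ± 0.34 and -0.28 ± 0.31 did not pass the test.

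None of the 19 Wnt ligands was called in either direction, beside 21.7% of all genes, and 0 had an unadjusted limma p under 0.05. Their ratios spanned 0.591 to 1.49 in STAT5b-/-, 0.643 to 1.57 in WT and 0.684 to 1.41 in REF. Log2 fold changes were positive in 11 and negative in 8, with a median of 0.04, and their limma adjusted p-values lay between 0.164 and 0.969. The 95% intervals of the single ligands reached from -1.05 to 0.89, so changes of a size seen for several called members could not be told from no change for many of them. Wnt2b, a ligand of the intestinal stroma, was the only ligand whose groups were apart. Over all genes, STAT5b-/- lay above WT in this way in 25.0% and below it in 16.5%. It gave 1.15, 1.25 and 1.23 in STAT5b-/-, against 1.10, 0.997 and 0.904 in WT, and 1.20 in REF (log2 fold change 0.28 ± 0.13, limma adjusted p = 0.17).

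Wnt2 had the lowest log2 fold change of the ligands, -0.51 ± 0.23, with 0.591, 0.873 and 0.635 in STAT5b-/- and 0.818, 1.28 and 0.901 in WT. Wnt10b had the highest, 0.38 ± 0.20, with 1.41, 1.21 and 1.21 in STAT5b-/- and 0.905, 1.30 and 0.796 in WT. Both overlapped between the groups, and Wnt10b was called (limma adjusted p = 0.0246) only when WT replicate 2 was left out. Wnt3, which Paneth cells supply in the small intestine, gave 1.03, 1.30 and 0.954 in STAT5b-/- and 0.792, 1.03 and 1.17 in WT. Wnt5a, a ligand that acts mostly without β-catenin, gave 1.30, 0.988 and 1.06 in STAT5b-/- and 1.07, 0.879 and 1.05 in WT. Neither showed a difference beyond the spread of its arrays. The remaining 14 ligands (Wnt1, Wnt3a, Wnt4, Wnt5b, Wnt6, Wnt7a, Wnt7b, Wnt8a, Wnt8b, Wnt9a, Wnt9b, Wnt10a, Wnt11 and Wnt16) had log2 fold changes between -0.30 (Wnt7b) and 0.30 (Wnt9a), and all overlapped between the groups.

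Of the 10 receptors and coreceptors, 2 fell (20.0%, beside 8.42% of all genes), 0 rose and 8 did not pass. Fzd1 had ratios of 0.449, 0.590 and 0.616 in STAT5b-/-, against 1.07, 0.969 and 0.958 in WT, and 1.01 in REF. The 3 STAT5b-/- values were well separated from the 4 wild type values, which lay close to 1. Fzd1 was 1.83-fold lower in STAT5b-/- (log2 fold change -0.87 ± 0.16, limma adjusted p = 0.0101). Fzd7, a Frizzled receptor of Lgr5-positive stem cells in the mouse intestine, had 0.776, 0.661 and 0.699 in STAT5b-/-, against 0.961, 1.05 and 0.987 in WT, and 0.989 in REF. It was 1.41-fold lower (log2 fold change -0.49 ± 0.12, limma adjusted p = 0.031). The call on Fzd7 was lost without STAT5b-/- replicate 2 (limma adjusted p = 0.116) or 3 (0.11), or without WT replicate 1 (0.0634) or 3 (0.0807).

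Fzd6 was apart in the same direction, with 0.813, 0.681 and 0.763 in STAT5b-/- and 1.01, 0.995 and 0.990 in WT, but did not pass (log2 fold change -0.41 ± 0.12, limma adjusted p = 0.053). Lrp6, a coreceptor of canonical signalling, was apart the other way, with 1.47, 1.26 and 1.26 in STAT5b-/- and 0.981, 1.01 and 1.01 in WT (0.41 ± 0.12, limma adjusted p = 0.0565). REF stood at 1.35 for Lrp6, inside the STAT5b-/- range although its genotype is wild type. Fzd5 had the widest spread of linear ratios within STAT5b-/- among the members, with 2.44, 1.53 and 0.795 in STAT5b-/- and 1.07, 0.745 and 1.18 in WT, and Lrp5 gave 0.997, 1.40 and 1.15 in STAT5b-/- and 0.872, 1.01 and 1.11 in WT. Both overlapped. Fzd2, Fzd3, Fzd4 and Fzd10 lay between -0.26 and 0.04 on the log2 scale, again with WT replicate 2 as the highest WT array in each.

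Of the 4 inhibitors that act inside or at the surface of the responding cell, Axin2 fell and 3 did not pass. That is 25.0% lower, beside 8.42% of all genes. Axin2, transcribed in answer to β-catenin and widely used as a readout of it, had ratios of 0.650, 0.566 and 0.576 in STAT5b-/-, against 0.970, 0.910 and 1.12 in WT, and 1.33 in REF. STAT5b-/- arrays were below all wild type values, and REF was the highest of them. The mean was 0.598 ± 0.0456 in STAT5b-/- and 1.00 ± 0.109 in WT (SD, n = 3 each), 1.67-fold lower in STAT5b-/- (log2 fold change -0.74 ± 0.14, 95% interval -1.06 to -0.42, limma adjusted p = 0.0103). Without STAT5b-/- replicate 2 the difference was -0.70 ± 0.17 and missed the threshold (limma adjusted p = 0.0507). Axin1, the constitutive scaffold of the destruction complex, gave 1.34, 1.07 and 1.14 in STAT5b-/- and 0.893, 1.09 and 1.02 in WT, which overlapped.

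Rnf43, a Wnt target that clears Frizzled from the cell surface, had 1.37, 1.44 and 1.17 in STAT5b-/-, against 0.951, 1.01 and 1.04 in WT, and 0.985 in REF. These groups were apart with STAT5b-/- above, the opposite order to Axin2, but Rnf43 did not pass (log2 fold change 0.40 ± 0.13, limma adjusted p = 0.0718). Nkd1, a Dishevelled-binding inhibitor that is also a Wnt target, overlapped, with 0.905, 1.11 and 0.994 in STAT5b-/- and 0.857, 1.20 and 0.946 in WT (0.01 ± 0.17). The 3 TCF/LEF factors, which carry β-catenin to DNA, were not called. Tcf7l2, the main such factor of the intestinal epithelium, was apart, with 1.69, 1.27 and 1.28 in STAT5b-/- and 1.10, 1.01 and 0.895 in WT (0.49 ± 0.16, limma adjusted p = 0.0754). Tcf7 and Lef1 overlapped, at 0.11 ± 0.13 and 0.04 ± 0.17.

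**Figure D2:**
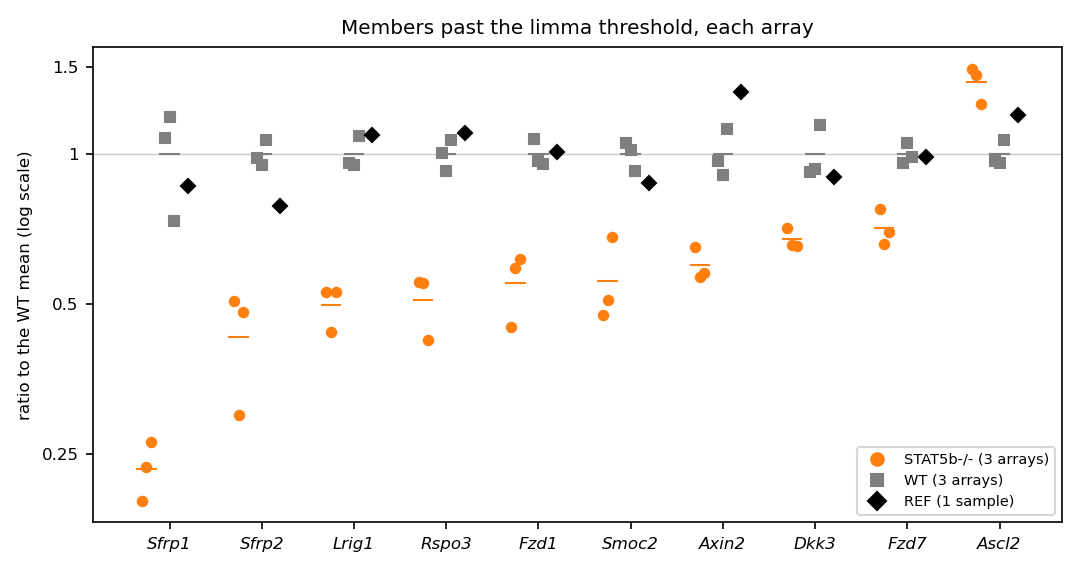
Ratio to the WT mean on a log axis in each array for the 10 members called between STAT5b-/- (left) and WT (middle), with the REF sample (right); horizontal lines are group means. For all 10 members the STAT5b-/- points lie on 1 side of the WT points, and in Axin2 the REF point at 1.33 lies above every WT array.

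Of the 7 crypt stem cell and position genes, 2 fell, 1 rose and 4 did not pass. That is 28.6% lower and 14.3% higher, beside 8.42% and 13.3% of all genes. Lgr5, the R-spondin receptor that defines the stem cells of the crypt base, had ratios of 2.02, 1.35 and 1.19 in STAT5b-/-, against 0.813, 1.46 and 0.732 in WT, and 1.18 in REF. All STAT5b-/- arrays were above 2 of the WT arrays, and WT replicate 2 lay among them. The log2 fold change was 0.64 ± 0.31 with a 95% interval of -0.11 to 1.38, and it did not pass (limma adjusted p = 0.205). Without WT replicate 2 it was 0.94 ± 0.23 and passed (limma adjusted p = 0.029), and it passed with no other array left out. Without STAT5b-/- replicate 1, the only male, it was 0.41 ± 0.32 (limma adjusted p = 0.488). Without WT replicate 3 it was 0.45 ± 0.34 (limma adjusted p = 0.422). Ascl2, which controls the stem cell programme together with β-catenin, had 1.49, 1.44 and 1.26 in STAT5b-/-, against 0.970, 0.962 and 1.07 in WT, and 1.20 in REF. Its groups were apart, with REF between them. Ascl2 averaged 1.40 ± 0.117 in STAT5b-/- and 1.00 ± 0.0595 in WT (SD, n = 3 each), 1.40-fold higher in STAT5b-/- (log2 fold change 0.48 ± 0.13, limma adjusted p = 0.037). This call was lost when any 1 array was left out, the limma adjusted p then lying between 0.0501 and 0.125 with log2 fold changes of 0.43 to 0.55.

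Lrig1, a membrane protein that restrains ErbB receptors and marks crypt stem cells, had ratios of 0.527, 0.439 and 0.529 in STAT5b-/-, against 0.961, 0.951 and 1.09 in WT, and 1.09 in REF. The separation was wide and no array stood apart within its group. Lrig1 averaged 0.498 ± 0.0516 in STAT5b-/- and 1.00 ± 0.0766 in WT (SD, n = 3 each), 2.01-fold lower in STAT5b-/- (log2 fold change -1.01 ± 0.14, 95% interval -1.33 to -0.68, limma adjusted p = 0.00344). Smoc2, a secreted matrix protein enriched in Lgr5-positive cells of the mouse intestine, had 0.475, 0.510 and 0.681 in STAT5b-/-, against 1.05, 1.02 and 0.927 in WT, and 0.875 in REF. It was 1.82-fold lower in STAT5b-/- (log2 fold change -0.87 ± 0.17, limma adjusted p = 0.0126), and without STAT5b-/- replicate 2 it missed the threshold (-0.81 ± 0.20, limma adjusted p = 0.0578). On these calls the stem cell markers did not share 1 direction: Lrig1 and Smoc2 were called lower, Ascl2 was called higher and Lgr5 was not called. The only upward call, that of Ascl2, was lost when any 1 array was left out. In whole tissue, the cells that gave these values cannot be told apart.

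The Eph receptors place cells along the crypt axis and are targets of β-catenin. Ephb3 had 0.526, 0.695 and 0.577 in STAT5b-/-, against 0.827, 1.32 and 0.850 in WT, and 1.06 in REF. Its groups were apart, but the difference of -0.71 ± 0.22 did not pass (limma adjusted p = 0.0602), and without WT replicate 2, its highest array, it was -0.49 ± 0.15 and did not pass either (limma adjusted p = 0.0582). Ephb2 overlapped, with 0.857, 0.885 and 0.991 in STAT5b-/- and 1.03, 0.790 and 1.18 in WT. Sox9, a transcription factor of the lower crypt, gave 1.01, 0.637 and 0.765 in STAT5b-/- and 1.02, 0.942 and 1.04 in WT (-0.34 ± 0.19, limma adjusted p = 0.256).

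WT replicate 2 was often the highest of the 3 WT arrays, and this held over all genes too. It was the highest in 31 of the 56 members (55.4%), beside 48.8% of all genes. Among the 46 members not called it was so in 29 (63.0%), and among the 19 Wnt ligands in 13. The 46 were set apart by a test that the spread within WT enters, so their share cannot be read apart from it. The median ratio over the 56 members was 1.08 in that array, against 0.894 and 0.977 in the other WT arrays, 0.911 to 0.957 in STAT5b-/- and 0.919 in REF. Over all genes the median of WT replicate 2 was 1.04. The members also varied more within WT, with a median SD of 0.194 against 0.161 over all genes, than within STAT5b-/-, with 0.116 against 0.105 over all genes. Without WT replicate 2 the same 9 members were called lower, Ascl2 was lost, and Lgr5 and Wnt10b were called higher. Of all genes, 9.47% were then lower and 15.3% higher.

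**Figure D3:**
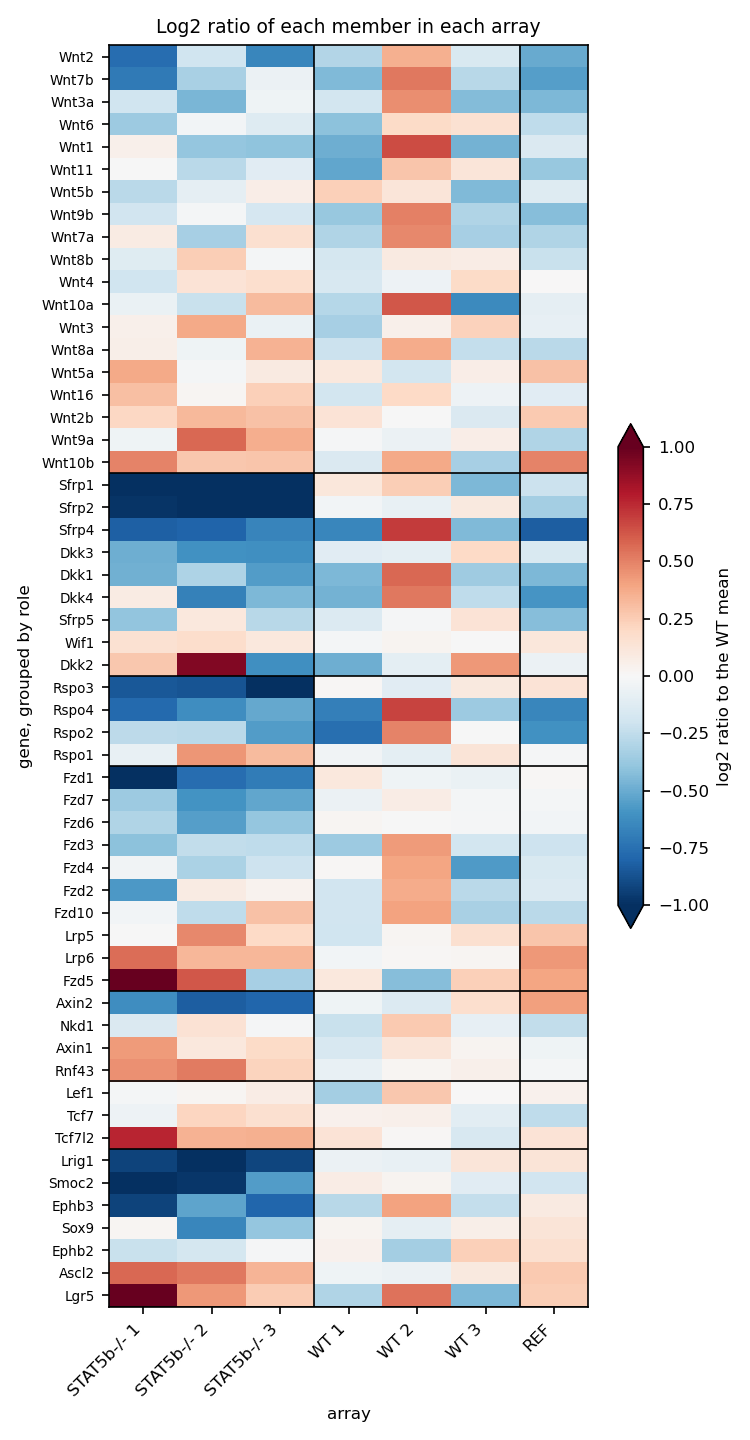
Log2 ratio to the WT mean of the 56 members (rows, by role) in the 3 STAT5b-/- arrays (left), the 3 WT arrays (middle) and REF (right), with colours from -1 to 1. Called members keep 1 colour across the STAT5b-/- columns. Among the Wnt ligands the WT replicate 2 column is the one that stands out, as the highest WT array in 13 of 19, beside 48.8% of all genes.

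REF gives a further wild type value beside the called members, from 1 sample. In all 9 members called lower, REF lay above every STAT5b-/- array. It lay above every WT array in Axin2, Lrig1 and Rspo3, within them in Sfrp1, Fzd1 and Fzd7, and below them in Sfrp2, Smoc2 and Dkk3. In Ascl2, REF at 1.20 was below every STAT5b-/- array and above every WT array. Between REF and WT, 0 members and 0 genes were called (limma, 0% of 14351 genes), and at an unadjusted p under 0.05 there were 0 members and 207 genes. With 1 sample against 3, that comparison can show little. With REF counted with the WT arrays, 11 members were lower and 2 higher, the additional ones being Ephb3, Fzd6 and Rnf43, while 9.51% of all genes were lower and 15.1% higher. The proliferation markers moved with REF: all 13 measured were above every WT array there, with a median ratio of 1.42, against 0.972 to 1.05 in STAT5b-/- and 0.845 to 1.15 in WT. Their part in the REF values of the members was not tested.

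Beyond the members, 88 of 102 listed genes of the Wnt pathway and the crypt were measured. Of these, 11 were higher and 5 were lower in STAT5b-/- (12.5% and 5.68%, beside the 13.3% and 8.42% of all genes given above), with a median log2 fold change of 0.07. β-catenin itself (Ctnnb1) was at 0.20 ± 0.13, and the destruction complex genes Apc and Gsk3b were at 0.35 ± 0.13 and 0.21 ± 0.12, and none of these passed the test. Gsk3a, the paralogue of Gsk3b, rose by 0.58 ± 0.14 (limma adjusted p = 0.0252). Among classical targets, Myc, Ccnd1 and Cd44 gave -0.49 ± 0.30, 0.16 ± 0.14 and -0.08 ± 0.14, and none passed. The AP-1 genes Jun and Fosl1, which answer to many signals besides Wnt, rose by 1.02 ± 0.14 and 1.04 ± 0.19 (limma adjusted p = 0.00328 and 0.00982). Jun had ratios of 2.02, 1.86 and 2.22 in STAT5b-/-, against 0.895, 1.02 and 1.09 in WT. Id3, an inhibitor of basic helix-loop-helix factors and a known BMP target, rose by 1.11 ± 0.15 (limma adjusted p = 0.00335).

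The intestinal transcription factors Cdx2 and Hnf4a rose as well, by 0.79 ± 0.17 and 0.70 ± 0.12 on the log2 scale (limma adjusted p = 0.0185 and 0.00801), whereas Cdx1, at 0.39 ± 0.15, did not pass. Cdx2 had 1.63, 1.76 and 1.71 in STAT5b-/-, against 1.03, 0.791 and 1.18 in WT. Among receptors, the Wnt-binding kinase Ryk rose by 0.50 ± 0.12 and the kinase Ror2, a receptor for Wnt5a, fell by 0.64 ± 0.17 (limma adjusted p = 0.0251 and 0.0355). The greatest fall in this list was that of Slc12a2, a chloride cotransporter of crypt cells, with 0.465, 0.370 and 0.483 in STAT5b-/-, against 1.01, 1.03 and 0.964 in WT, and 0.887 in REF (log2 fold change -1.20 ± 0.14, limma adjusted p = 0.00225). Celsr1, a planar polarity cadherin, fell by 1.06 ± 0.17, the forkhead factor Foxa1 by 0.67 ± 0.12, and the Groucho family member Tle6 by 0.55 ± 0.12 (limma adjusted p = 0.00655, 0.00914 and 0.0185). Ctnnd1, the catenin that binds cadherins near the membrane, rose by 0.57 ± 0.14 (limma adjusted p = 0.0321), and the other genes that rose were Cdca7, Csnk1g3 and Tcf7l1. When any 1 array was left out, Jun, Id3, Fosl1, Hnf4a, Slc12a2, Celsr1 and Foxa1 stayed past the threshold, and the other 9 called genes did not in every case, Csnk1g3 in none.

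Marker lists of the cell types in a whole colon sample moved between the groups as well. The counts below stand beside 8.42% of all genes called lower and 13.3% called higher. Since ratios cannot be summed as levels, each list is given by its median ratio per array. Of 20 fibroblast markers, 11 were lower and 0 higher in STAT5b-/-, among them the collagens Col1a1, Col1a2 and Col3a1. The median ratio was 0.651 to 0.707 in STAT5b-/-, against 0.880 to 1.08 in WT, and 0.904 in REF. Grem1, a BMP antagonist made by stromal cells beneath the crypts, had 0.139, 0.157 and 0.142 in STAT5b-/-, against 1.13, 0.983 and 0.890 in WT, and 0.663 in REF. Pdgfra, Foxl1 and Gli1, markers of the Wnt-producing subepithelial stroma, were at -0.09, 0.10 and -0.00 on the log2 scale and were not called. Sfrp1, Sfrp2, Dkk3 and Rspo3 are known as stromal genes, and the part of the fibroblast markers in their values was not tested.

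The other lists of non-epithelial cells differed among themselves. Smooth muscle markers (0 of 10 called), enteric nervous system markers (0 of 8) and endothelial markers (1 of 7, lower) had medians of -0.09, 0.01 and 0.04 on the log2 scale. Of 7 leukocyte markers, 4 were lower and 1 higher, with a median ratio of 0.502 to 0.561 in STAT5b-/-, against 0.921 to 1.12 in WT. Within the epithelium, 8 of 11 absorptive colonocyte markers were higher and 1 lower (median ratio 1.78 to 1.88 in STAT5b-/-, against 0.979 to 1.02 in WT). Goblet cell markers ran the other way, with 5 of 7 lower and 0 higher (0.258 to 0.449 in STAT5b-/-, against 0.963 to 1.06 in WT). Of 4 markers of deep crypt secretory and Paneth-like cells, Kit and Nupr1 were lower and 0 were higher (median ratio 0.433 to 0.592 in STAT5b-/-, against 0.981 to 1.11 in WT). The other markers of that list, Reg4 and Mmp7, were not called, at -0.20 ± 0.60 and -0.67 ± 0.23 on the log2 scale. Of 7 general epithelial markers, Vil1 and Elf3 were higher and Krt18 was lower. Their list had a median ratio of 1.26 to 1.32 in STAT5b-/-, against 0.965 to 1.03 in WT, and of 13 proliferation markers only Mcm2 was called, as higher.

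**Figure D4:**
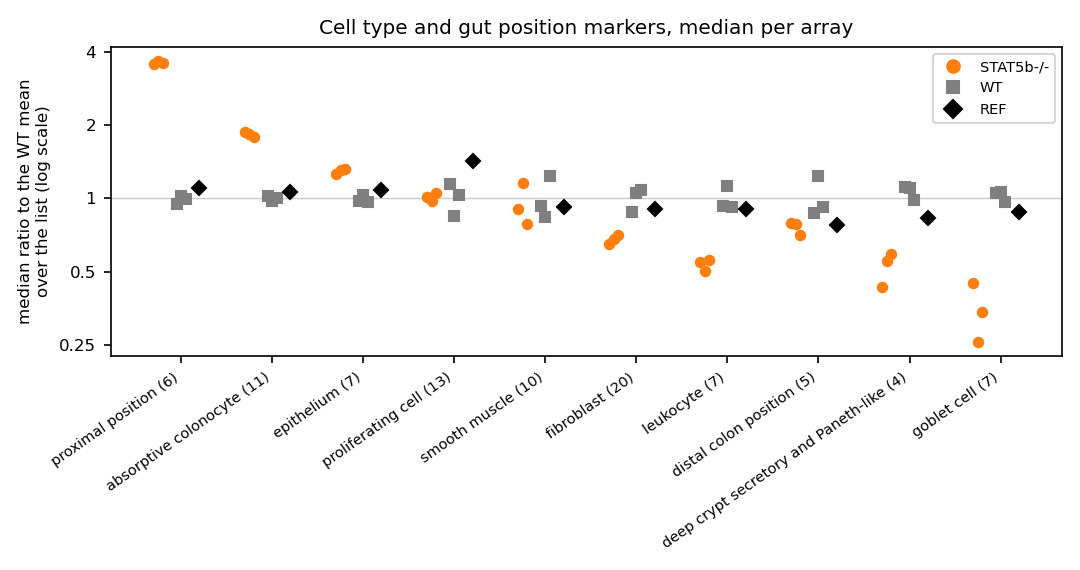
Median ratio to the WT mean over marker lists of cell types and of gut position, by array, for the 3 STAT5b-/- arrays (left), the 3 WT arrays (middle) and REF (right). The enteric nervous system and endothelial lists are not drawn. Goblet, deep crypt secretory, leukocyte and fibroblast lists lie lower in STAT5b-/- than in WT, absorptive colonocyte and epithelial lists lie higher, and REF stands out in the proliferation list at 1.42. Of the Hox gene lists, that of proximal position lies highest of all in STAT5b-/- (3.55 to 3.66). That of distal position lies lower than in WT both in STAT5b-/- (0.708 to 0.791) and in REF (0.775).

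Genes that mark position along the gut also differed between the groups. Of 6 Hox genes of proximal position, 5 were higher and 0 lower, with a median ratio of 3.55 to 3.66 in STAT5b-/-, against 0.948 to 1.02 in WT, and 1.10 in REF. Of 5 Hox genes of distal position, Hoxb13 and Hoxa13 were lower, at -4.89 and -1.43 on the log2 scale, and 0 were higher. The distal list had a median ratio of 0.708 to 0.791 in STAT5b-/-, against 0.870 to 1.24 in WT. In REF it was 0.775, inside the STAT5b-/- range. REF stood at 1.115 for Hoxb13 and 0.690 for Hoxa13, above every STAT5b-/- array in both. The labels do not give the segment of colon sampled, and the part of position, of the cell type lists above and of the sex of STAT5b-/- replicate 1 in the values of the Wnt and crypt genes was not tested.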

How the data were processed

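RNA from adult mouse colon was hybridised to Affymetrix arrays, from 100 ng of total RNA amplified once and labelled with biotin, per the labels' protocols. RMA, without a version, is named in the submitters' processing notes, and the type of Affymetrix array was not given in the labels. The deposited values are linear ratios: WT arrays average 1 in each probe set, with deviations up to 1.87e-07, so the authors divided by the WT mean. The lowest value was 0.01, reached by 0 members. Probe sets were named through the RefSeq table of GRCm38.p6 (15228 of 26180 with 1 symbol, 0 with several, 10952 with none). Ratios were taken to log2 without a pseudocount and a gene's probe sets averaged. STAT5b-/- and WT (6 arrays), and separately REF and WT, were compared with limma 3.58.1 (lmFit, eBayes) in R 4.3.3, two-sided, with Benjamini-Hochberg adjustment over 14351 genes and a threshold of 0.05. Folds come from means of log2 ratios. Dim probe sets could not be filtered out, and the number of arrays limits the precision.

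All 56 members are named. From the further pathway list, up to 8 called genes in each direction with the smallest p, and core genes and classical targets fixed by name, are given with values. The members and lists were chosen with earlier results of these data known. The fit was tested on simulated data. Alternatives were the normalization, the rule for probe sets, a pseudocount of 0.1, floor values left out, robust shrinkage, the samples fitted, a replicate block and each array left out.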

Additional observations from a re-analysis of the deposited data

How the results depend on the processing

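Over all genes, 1910 were higher and 1209 lower in STAT5b-/-, with 1 and 9 members, 11 and 5 further pathway genes, and a member median of -0.08 on the log2 scale. Quantile normalization gave 165 and 227 genes, 0 and 1 members, 0 and 1 further genes and a median of -0.008. By construction it gives the WT and STAT5b-/- arrays a common width. With REF as a wild type array, 2 members were higher, 8 further genes were lower and the median was -0.025. Deviations of same-numbered arrays correlated at 0.036, -0.098 and -0.186, and those of differently numbered arrays at -0.137 to 0.216. With 3 arrays a group, these values cannot tell whether the replicate numbers pair the arrays. With the number as a block, 1238 genes were higher and 801 lower, 0 members were higher and 8 lower, and 5 and 3 further genes were called. Leaving out 1 array at a time gave 1053 to 2192 genes higher and 663 to 1359 lower, 0 to 2 members higher and 5 to 9 lower, 4 to 11 further genes higher and 3 to 8 lower, and a median of -0.117 to 0.076. The probe set rule, the pseudocount, floor values, robust shrinkage and a fit over all groups each left 1 member higher and 9 lower, and median centring 1 and 10.

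Among the members and further pathway genes named in the text that were not called, Wnt9b turned sign under quantile normalization (0.046) and with REF as wild type (0.026). Signs also turned, on the log2 scale, when 1 array was left out, for Cd44 (-0.179 to 0.011), Dkk2 (-0.123 to 0.645), Dkk4 (-0.497 to 0.013), Ephb2 (-0.278 to 0.009), Fzd10 (-0.104 to 0.260), Fzd2 (-0.242 to 0.087), Fzd4 (-0.392 to 0.089), Lef1 (-0.114 to 0.188), Nkd1 (-0.091 to 0.150), Rspo2 (-0.612 to 0.013), Wnt1 (-0.334 to 0.236), Wnt10a (-0.159 to 0.470), Wnt11 (-0.329 to 0.068), Wnt3 (-0.021 to 0.262), Wnt3a (-0.372 to 0.075), Wnt4 (-0.032 to 0.162), Wnt5b (-0.276 to 0.062), Wnt7a (-0.120 to 0.283), Wnt8b (-0.063 to 0.120) and Wnt9b (-0.227 to 0.216). For the other values that changed, the cause was not tested. Without signal over background, dim members cannot be set aside.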
